A study of Homo sapiens with 4 samples.

Results

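The genes described here encode 10 proteins of the neuronal cytoskeleton and the growth cone, chosen by name: the neurofilament subunits NEFL, NEFM and NEFH, the related filament proteins INA and PRPH, the microtubule-binding proteins MAP2, MAPT and DCX, the microtubule regulator STMN2 and the growth cone protein GAP43. They were taken from the 57820 genes counted in RNA of SY5Y cells. Of the 10, 9 could be matched to an identifier in the count tables and all of these 9 passed the filter on low counts, as did 16468 genes in all. NEFL could not be matched by identifier to the annotation used and was not analysed here. SY5Y is an established human neuroblastoma line, a cloned subline of SK-N-SH, and is labelled MYCN wild type. Cells received either the solvent DMSO or the compound labelled SGSS05-NS, and RNA was taken after 12 h. The paper describes RNA-seq of this line with SGSS05-NS3, an inhibitor of the histone methyltransferase SETD8. Its discussion also lists a compound SGSS05-NS of the same series, and the names were taken here to mean the same compound. The paper reports that the series also inhibited other methyltransferases at low micromolar concentrations. Each condition had 2 libraries, described in the paper as independent biological replicates. The labels give the dose as 3 μM, as do the figure legends for RNA-seq of this line, while the methods text gives a lower one. All of the cells come from a single tumour line grown in culture, so the values hold for that line.

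Neurons fill their axons with neurofilaments, polymers of light, medium and heavy subunits that join with alpha-internexin (INA) in central neurons or with peripherin (PRPH) in peripheral ones, and that set the calibre of the axon. Microtubules are the tracks for transport: MAP2 binds them mainly in dendrites, tau (MAPT) mainly in axons, and doublecortin (DCX) in migrating young neurons, while STMN2 releases tubulin from their ends in the growth cone. GAP43 is a membrane-attached protein of the growing axon tip, and neuroblastoma cells, which descend from the sympathetic lineage, express many of these genes and raise them when they differentiate.

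Counts are fragments per gene on the strand of the gene, as STAR assigned them. Levels are given as CPM, the count of a gene relative to the library size after TMM scaling, which adjusts library sizes so that most genes keep the same level. A gene was called higher or lower when edgeR's quasi-likelihood test of SGSS05-NS against DMSO gave an adjusted p (Benjamini-Hochberg over the 16468 genes) under 0.001. Between 21463105 and 25350204 fragments fell on genes in each library. Of all genes tested, 6.37% were called higher and 8.14% lower. KMT5A, which encodes SETD8, was 55.7 ± 1.53 CPM with DMSO and 82.9 ± 0.0952 CPM with SGSS05-NS (SD, n = 2; log2 fold change 0.57, adjusted p = 0.00037, edgeR). Of 10 markers of sympathetic neuroblasts, 9 were tested, and the 10 together summed to between 3523 and 3812 CPM with DMSO, against 243 to 274 CPM for 8 markers of mesenchymal neuroblastoma cells and 1.80 to 2.15 CPM for 7 Schwann or glial markers. PRRX1 among the mesenchymal markers and SOX10 among the glial ones were at 0 in all 4 libraries.

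Promoter sequence is shown for 3 of the genes, chosen with their values known: INA, the filament gene with the highest level per kb, PRPH, the gene with the lowest, and GAP43, which had the lowest log2 fold change. Each line gives the 250 bases before the RefSeq start, 5′ to 3′ on the strand of the gene (GRCh38.p14: INA chr10:103276888-103277137 plus strand, GAP43 chr3:115623260-115623509 plus strand, PRPH chr12:49294897-49295146 plus strand). Of the 10 genes, 5 had an entry in the promoter table. Capitals mark the TATA box (TATAAA), the CCAAT box (CCAAT), the GC box (GGGCGG) and the E-box (CACGTG), each searched on both strands so that a match on the opposite strand reads as its reverse complement.
INA: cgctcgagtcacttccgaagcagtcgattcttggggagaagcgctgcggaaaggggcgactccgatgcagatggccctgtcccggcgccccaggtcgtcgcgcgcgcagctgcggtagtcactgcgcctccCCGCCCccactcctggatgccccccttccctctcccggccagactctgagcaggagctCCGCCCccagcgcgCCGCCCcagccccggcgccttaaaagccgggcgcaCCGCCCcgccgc
GAP43: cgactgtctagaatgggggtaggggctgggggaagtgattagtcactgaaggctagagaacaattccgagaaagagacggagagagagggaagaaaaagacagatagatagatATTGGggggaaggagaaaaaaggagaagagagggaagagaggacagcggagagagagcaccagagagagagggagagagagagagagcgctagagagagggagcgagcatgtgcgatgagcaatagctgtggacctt
PRPH: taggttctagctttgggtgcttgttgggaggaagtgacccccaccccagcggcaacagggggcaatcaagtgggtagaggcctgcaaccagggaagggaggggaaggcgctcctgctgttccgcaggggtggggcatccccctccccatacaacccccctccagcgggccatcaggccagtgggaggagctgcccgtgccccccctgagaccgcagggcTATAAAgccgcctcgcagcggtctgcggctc
INA held 4 GC boxes, a GC content of 72.8% and 30 CpG pairs. GAP43 held 1 CCAAT box on the opposite strand, no GC box, a GC content of 51.6% and 7 CpG pairs. PRPH had 1 TATA box, whose first base lies 31 bases before the start. Over 35116 promoter windows of the same length, 42.6% held a GC box, 32.0% a CCAAT box, 10.7% a TATA box and 6.34% an E-box, and the median GC content was 58.0%. A match to these letters is a description of the window and does not show that a factor binds there.

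With SGSS05-NS, NEFH was called higher, and NEFM and INA had higher values that did not pass the test. MAPT, STMN2 and GAP43 were called lower, and MAP2 and DCX had lower values that did not pass. Of the 9 genes tested, 1 was thus called higher (11.1%, against 6.37% of all genes) and 3 lower (33.3%, against 8.14%). The median log2 fold change was 0.33 for the 4 filament genes, -0.62 for the 4 microtubule genes and 0.01 for all genes tested. At an adjusted p under 0.05 (edgeR), 3 of the 9 were higher (22.6% of all genes) and 5 lower (23.7%), so that 8 of 9 passed against 46.3% of all genes. In 8 of the 9, both SGSS05-NS libraries lay on the same side of both DMSO libraries, above them in 3 (37.8% of all genes) and below them in 5 (36.9%), and 74.7% of all genes showed such an order. With a single library left out, the number called higher stayed or rose, and the number called lower rose, fell or stayed, depending on the library.

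**Figure D1:**
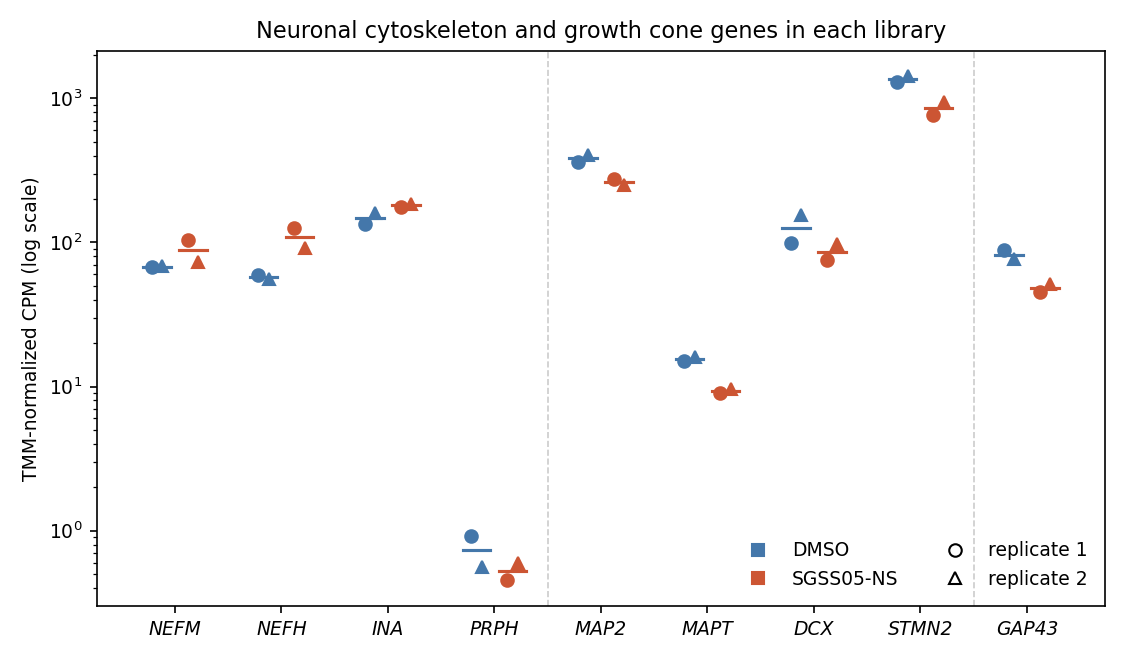
TMM-normalized CPM (log axis) of the 9 genes in each library, DMSO in blue and SGSS05-NS in red, circles for replicate 1, triangles for replicate 2 and lines for the mean of the 2 libraries. Dashed lines separate the filament genes, the microtubule genes and GAP43; only for PRPH do the conditions overlap.

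NEFH (ENSG00000100285.9, chromosome 22 of GRCh37 from 29876207 to 29887379, plus strand) encodes the heavy subunit, whose long phosphorylated tail projects from the filament. It stood at 59.2 and 55.7 CPM in the DMSO libraries and at 125 and 91.6 CPM with SGSS05-NS. Both treated libraries were well above both controls, and they differed from each other by more than the controls did. The log2 fold change came to 0.92 ± 0.13 (standard error of the edgeR fit), with an adjusted p of 0.000171, a rise of 1.89-fold. NEFH was called higher in each of 13 alternative fits, which used other tests, scalings, filters, a replicate block or strand settings or left out 1 library, with values between 0.67 and 1.12. A fit that also removes the trend on gene span is given separately further on.

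NEFM (ENSG00000104722.9, chromosome 8 from 24771271 to 24776611, plus strand), the medium subunit, stood at 67.1 and 68.8 CPM with DMSO and at 103 and 73.1 CPM with SGSS05-NS. Only the first treated library was clearly above the controls. Its log2 fold change was 0.38 ± 0.14 (standard error of the edgeR fit), which left it uncalled at an adjusted p of 0.0388. Without replicate 2 of SGSS05-NS it was 0.61 (adjusted p = 0.00015, edgeR) and without replicate 1 it was 0.10, so its size rests on 1 library.

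The 5′ end of NEFM overlaps a long non-coding RNA gene on the opposite strand, ENSG00000272163 (chromosome 8 from 24769676 to 24772230). That gene had 251 and 203 fragments with DMSO and 111 and 119 with SGSS05-NS, and both treated libraries were below both controls. Its log2 fold change came to -0.89 ± 0.17 (standard error of the edgeR fit), with an adjusted p of 0.00107, the opposite sign to that of NEFM, and it was singled out after its values were seen. Fragments on the strand opposite to NEFM made up 10.8% and 8.69% of those on either strand with DMSO and 3.86% and 5.08% with SGSS05-NS. When strand was ignored, fragments shared by both genes were assigned to neither, NEFM kept 1209 and 1062 fragments with DMSO and 1342 and 1030 with SGSS05-NS, and its log2 fold change was 0.11.

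INA (ENSG00000148798.5, chromosome 10 from 105036895 to 105050103, plus strand) was at 134 and 161 CPM with DMSO and at 177 and 185 CPM with SGSS05-NS. Both treated libraries were above both controls, but the gap between the conditions was smaller than the gap between the 2 controls. The log2 fold change came to 0.29 ± 0.10 (standard error of the edgeR fit), with an adjusted p of 0.0368. It was 0.16 without replicate 1 of DMSO (adjusted p = 0.395, edgeR) and 0.41 without replicate 2 (adjusted p = 0.0155, edgeR), so its size too depends on a control library. PRPH (ENSG00000135406.9, chromosome 12 from 49688930 to 49692469, plus strand) had only 23 and 13 fragments with DMSO and 10 and 14 with SGSS05-NS. The libraries overlapped, and a change was not detectable at this depth (log2 fold change -0.49, standard error 0.40, adjusted p = 0.329, edgeR). With 1 library left out the value for PRPH ranged from -0.82 (without replicate 2 of DMSO) to -0.09 (without replicate 1 of DMSO).

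Because filaments are built from several subunits, the ratio of their transcripts within a library was also taken, which does not depend on how libraries are scaled. Per kb of annotated exon, NEFH was 0.845 and 0.776 times NEFM in the DMSO libraries and 1.16 and 1.20 times NEFM with SGSS05-NS. NEFH thus passed from below to above NEFM in both treated libraries, a shift of 0.54 on the log2 scale with SDs of 0.086 (DMSO) and 0.034 (SGSS05-NS). INA was 2.23 and 2.61 times NEFM with DMSO and 1.91 and 2.83 times with SGSS05-NS, and the conditions overlapped. PRPH was at most 0.0190 times NEFM in any library. An exact permutation test of 2 libraries against 2 cannot give a p below 0.333, so these ratios are given without a test.

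**Figure D2:**
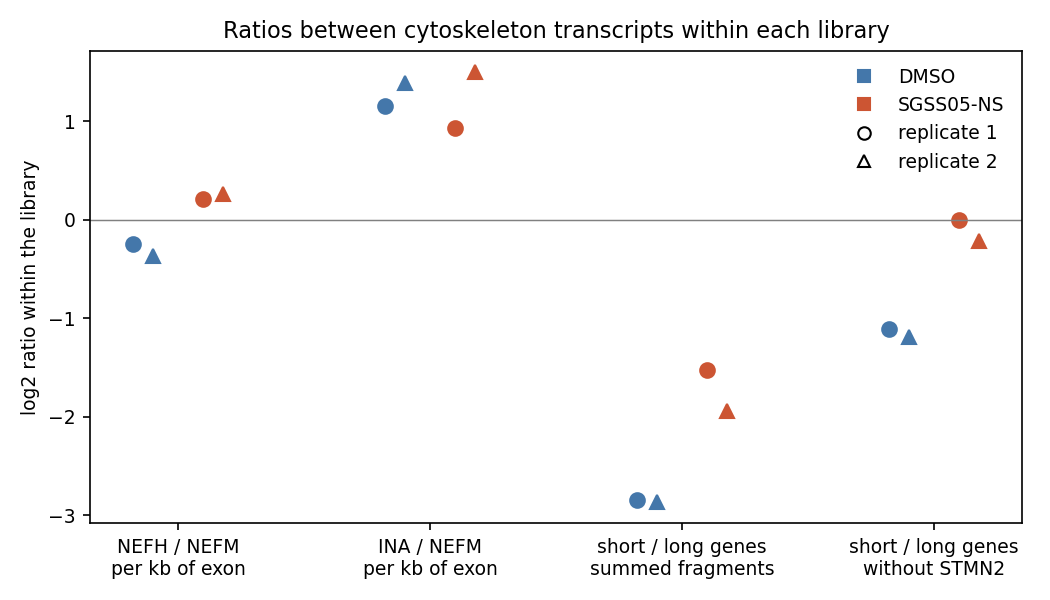
Log2 ratios within each library: NEFH and INA to NEFM per kb of exon, and the summed fragments of the 4 short genes to those of the 5 long genes with and without STMN2. DMSO is blue and SGSS05-NS red, with circles for replicate 1 and triangles for replicate 2; NEFH to NEFM and both short-to-long ratios are higher in both treated libraries, while INA to NEFM overlaps.

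Among the microtubule genes, STMN2 (ENSG00000104435.9, chromosome 8 from 80523352 to 80578393, plus strand) had by far the most fragments. It was at 1309 and 1431 CPM with DMSO and at 765 and 939 CPM with SGSS05-NS. Both treated libraries were below both controls, with a log2 fold change of -0.68 ± 0.11 (standard error of the edgeR fit) and an adjusted p of 0.000495. In bulk RNA, fewer cells of a kind and less RNA in each cell cannot be told apart. STMN2 was called lower in each of the 13 alternative fits, with values from -0.84 to -0.55.

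MAPT (ENSG00000186868.11, chromosome 17 from 43971893 to 44105700, plus strand), which encodes tau, was at 15.1 and 16.1 CPM with DMSO and at 9.01 and 9.65 CPM with SGSS05-NS. Replicates lay close together in both conditions. The log2 fold change came to -0.74 ± 0.14 (standard error of the edgeR fit), with an adjusted p of 0.000973, the closest to the threshold of the genes called. The call was kept in 6 of 13 alternative fits, in which the log2 fold change ranged from -0.79 to -0.69 and the adjusted p reached 0.00195 (edgeR). It was lost without replicate 2 of DMSO (adjusted p = 0.00114), without replicate 1 of SGSS05-NS (0.00195) and without replicate 2 of SGSS05-NS (0.00106, all from edgeR).

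MAP2 (ENSG00000078018.15, chromosome 2 from 210288771 to 210598871, plus strand) lay just outside the threshold. It stood at 363 and 404 CPM with DMSO and at 277 and 249 CPM with SGSS05-NS, and both treated libraries were below both controls. Its log2 fold change came to -0.54 ± 0.10 (standard error of the edgeR fit), with an adjusted p of 0.00104, and 9 of the 13 alternative fits called it lower, with values from -0.63 to -0.47. It was called without replicate 1 of DMSO (adjusted p = 5.7e-05) and without replicate 1 of SGSS05-NS (7.5e-05, both from edgeR).

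DCX (ENSG00000077279.12, chromosome X from 110537007 to 110655657, minus strand) was at 98.5 and 155 CPM with DMSO and at 75.02 and 96.8 CPM with SGSS05-NS. The controls were far apart, and the lower of them was close to the higher treated library. The log2 fold change came to -0.56 ± 0.18 (standard error of the edgeR fit), with an adjusted p of 0.0217. It was -0.86 without replicate 1 of DMSO and -0.22 without replicate 2, so its size depends on the control library kept. DCX was called lower in 2 of the 9 alternative fits that kept all 4 libraries. These were the fit with no low count filter and the replicate block (-0.54, adjusted p = 0.00027, edgeR).

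GAP43 (ENSG00000172020.8, chromosome 3 from 115342357 to 115440337, plus strand), whose promoter is printed above, had the lowest log2 fold change of the 9, though it differed from that of MAPT by less than the standard error of either. It was at 88.4 and 76.2 CPM with DMSO and at 45.6 and 51.6 CPM with SGSS05-NS, and the conditions were far apart. The log2 fold change came to -0.76 ± 0.11 (standard error of the edgeR fit), with an adjusted p of 0.000158, a level 1.69-fold lower. Each of the 13 alternative fits called GAP43 lower, with values between -0.88 and -0.66.

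The markers of sympathetic neuroblasts moved in the same direction as MAPT, STMN2 and GAP43, and opposite to NEFH. Their sum was between 1929 and 2152 CPM with SGSS05-NS, and 7 of the 9 tested were called lower, against 8.14% of all genes. The sum of the mesenchymal markers was between 181 and 192 CPM with SGSS05-NS, with 1 of 7 tested called lower, and that of the glial markers between 1.74 and 2.61 CPM. Their part in the fall of MAPT, STMN2 and GAP43 was not tested.

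Levels of different genes were compared per kb of annotated exon (RPKM). With DMSO, STMN2 led with 671 ± 42.4 RPKM (SD, n = 2), followed by INA (45.4 ± 5.81), GAP43 (43.3 ± 4.54), MAP2 (32.4 ± 2.41), NEFM (18.7 ± 0.324), NEFH (15.1 ± 0.644), DCX (12.4 ± 3.90), MAPT (0.847 ± 0.0395) and PRPH (0.281 ± 0.0973). INA and GAP43 overlapped between libraries, as did NEFH and DCX. Per kb of the canonical transcript, a length chosen after the data were seen, GAP43 was at 59.0 and 50.9 RPKM with DMSO and INA at 41.3 and 49.5 RPKM, so the order of this pair reverses, without overlap, with the length used. With SGSS05-NS, NEFH stood at 28.6 ± 6.26 RPKM, GAP43 at 25.6 ± 2.24, NEFM at 24.3 ± 5.88 and MAP2 at 22.2 ± 1.70 (SD, n = 2), and each of these 4 overlapped its neighbour in this order. STMN2 (417 ± 60.2 RPKM) and INA (55.6 ± 1.74 RPKM) remained above them. The exon length of MAPT covers many annotated isoforms (18.4 kb against 6.82 kb for its canonical transcript), and per kb of the canonical transcript its DMSO level was 2.29 RPKM, still between DCX and PRPH.

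The genes also differ in length, and short neuronal genes were therefore set against long ones. The 4 filament genes span between 3.54 and 13.2 kb of genome, and the other 5 between 55.0 kb (STMN2) and 310 kb (MAP2), so span and role in the cell cannot be told apart within this set. Below and above 30 kb, the median log2 fold change was 0.33 for the 4 short genes and -0.68 for the 5 long ones, a difference of 1.02. For all genes tested the medians were 0.14 below 30 kb (8686 genes) and -0.12 above it (7356 genes), a difference of 0.26. With the boundary at 100 kb, which moves STMN2 and GAP43 to the short side, the difference in the set was 0.46.

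The same contrast was taken within each library from the summed fragments of the short and the long genes. The log2 ratio of short to long was -2.84 and -2.86 with DMSO and -1.53 and -1.94 with SGSS05-NS. Both treated libraries were above the controls, and the mean rose by 1.12, with SDs of 0.016 (DMSO) and 0.29 (SGSS05-NS). STMN2 alone supplied most of the long fragments, and without it the ratio was -1.11 and -1.19 with DMSO and -0.0042 and -0.22 with SGSS05-NS, a difference of 1.04.

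Across all genes tested, response changed with span. The median log2 fold change was 0.10 for genes under 10 kb (4776 genes), 0.17 from 10 to 30 kb (3910), 0.02 from 30 to 100 kb (4523), -0.33 from 100 to 300 kb (2212) and -1.03 at 300 kb and over (621). In the last of these classes 53.8% of genes were called lower, in the class from 100 to 300 kb 20.5%, and from 30 to 100 kb 3.78%. From 10 to 30 kb the share called lower was 1.69%, and under 10 kb it was 5.86%. With protein-coding genes only, a restriction added after the data were seen, the medians were 0.15, 0.16, 0.01, -0.34 and -1.09 in the same order. The share of fragments that fell outside any annotated exon was 12.4% and 12.3% with DMSO and 16.1% and 15.3% with SGSS05-NS, and its part in these values was not tested.

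**Figure D3:**
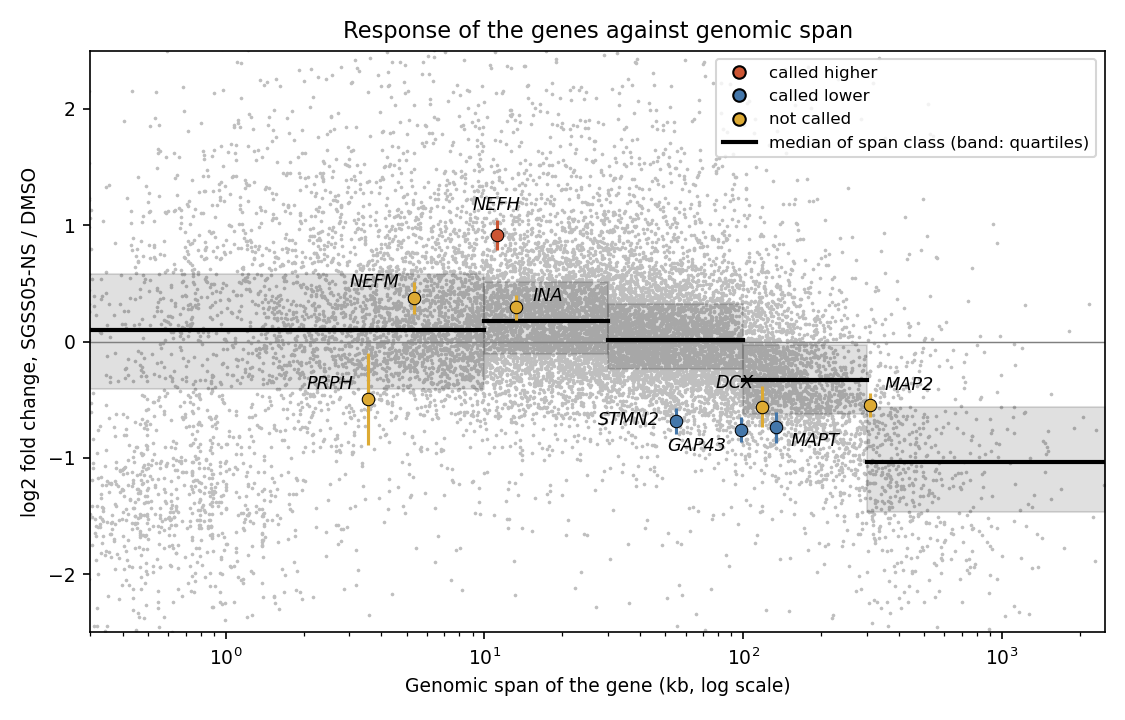
Log2 fold change of SGSS05-NS against DMSO by genomic span (log axis, kb). Grey dots are genes tested, black lines and bands the medians and quartiles of the span classes, and large points the 9 genes with their standard errors (red called higher, blue called lower, yellow not called); 562 genes lie outside the axes. MAP2 lies above the median of its class of -1.03, and STMN2 and GAP43 lie below theirs of 0.02.

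Set beside genes of like span, the 5 long members did not stand alike. MAP2, in the class at 300 kb and over, lay 0.49 above the median of its class, and 75.8% of that class had a lower value. STMN2 and GAP43, in the class from 30 to 100 kb, lay 0.70 and 0.77 below the class median, and only 3.69% and 2.79% of that class had lower values. MAPT and DCX, in the class from 100 to 300 kb, lay 0.41 and 0.23 below it, within the lower 17.5% and 29.1%. Of the filament genes, NEFH lay 0.74 above its class median, with 88.6% of the class below it, NEFM 0.28 above and INA 0.12 above. PRPH, with few fragments, lay 0.59 below its class median, and 22.6% of that class had a lower value. MAP2 (310 kb) and GAP43 (98.0 kb) lie near a bound of their classes. A smooth trend on span gave -0.75 at MAP2 and -0.14 at GAP43, against class medians of -1.03 and 0.02. Both genes thus lay closer to the trend than to the class median. Across the 9 genes, Spearman's rho between span and log2 fold change was -0.63, and between span and the distance to the class median -0.03; the 9 genes share the same 4 libraries, and the values are descriptions.

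When the smooth trend on span was removed within the edgeR fit, GAP43 (log2 fold change -0.62, adjusted p = 0.000991, edgeR) and STMN2 (-0.70, adjusted p = 0.00062) were still called lower. NEFH was then at 0.72 (adjusted p = 0.00127, edgeR) and MAPT at -0.46 (adjusted p = 0.0171), both no longer called. MAP2 changed sign, from -0.54 to 0.21 (adjusted p = 0.115, edgeR). The other members were not called in this fit either. NEFM was at 0.18 (adjusted p = 0.309), INA at 0.10 (0.450), DCX at -0.34 (0.143) and PRPH at -0.65 (0.205, all from edgeR).

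A wider set of 94 genes of the neuronal cytoskeleton and growth cone was written as 6 lists. Of these, 89 were tested, 4 were called higher (4.49%, against 6.37% of all genes) and 19 lower (21.3%, against 8.14%), with a median log2 fold change of -0.23 against 0.01 for all genes. MARCKS could not be matched by identifier, and NAV3, GPM6A, COBL and EPB41L3 had at most 9 fragments in any library and were not tested. By span, the median was 0.17 for the 9 genes under 10 kb and for the 16 from 10 to 30 kb, -0.03 for 22 from 30 to 100 kb, -0.40 for 34 from 100 to 300 kb and -1.03 for 8 at 300 kb and over. Of these 8, 7 were called lower (87.5%, against 53.8% of all genes of that class), and of the 34, 10 were (29.4%, against 20.5%). The medians of all genes in the same classes are given above. With the trend on span removed, 5 of the 89 were called lower and 5 higher, against 630 lower and 863 higher of all 16468 genes. Among the 89, those lower were 2 of 31 microtubule-associated proteins, 1 of 14 kinases and activators and 2 of 5 RNA-binding proteins. Filament partners, growth cone proteins and the membrane skeleton then had 0 called lower.

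**Figure D4:**
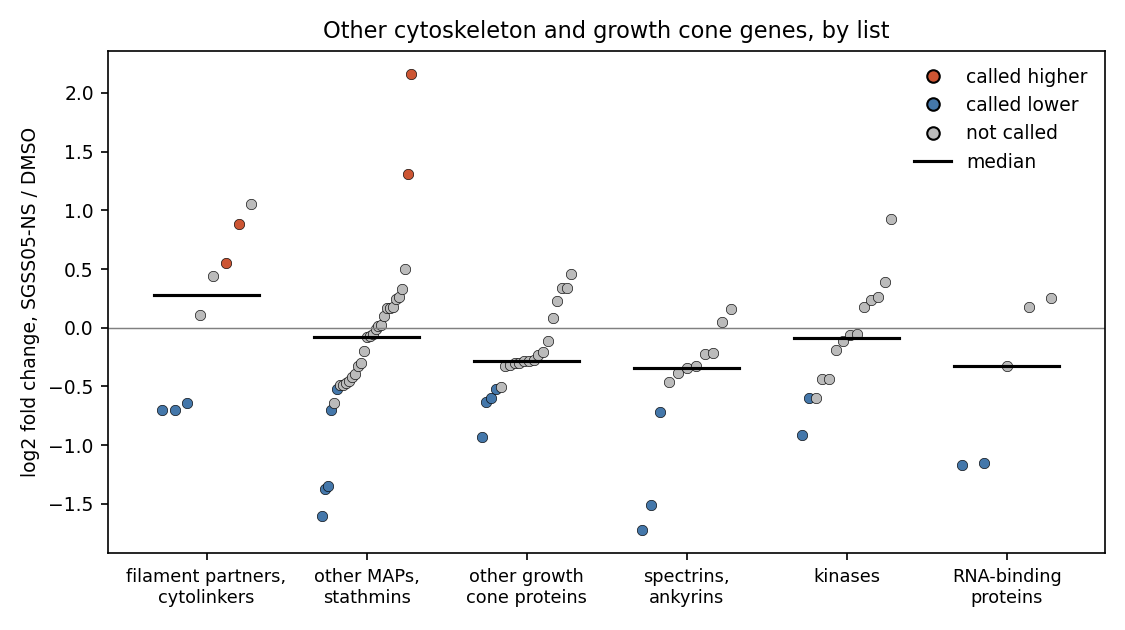
Log2 fold change of the 89 genes of the 6 wider lists, 1 point per gene, with black lines for list medians, red for genes called higher, blue for lower and grey for not called. The highest points are STMN4 (2.16) and MAP1A (1.31) among the microtubule-associated proteins, and the lowest are ANK3 (-1.72) and NAV2 (-1.61).

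Of 8 partners and cytolinkers of intermediate filaments, 2 were called higher (25%) and 3 lower (37.5%), with a median log2 fold change of 0.28. The shares over all genes were 6.37% higher and 8.14% lower. TRIM2, a ubiquitin ligase that binds the light neurofilament subunit, fell from 137 ± 9.998 to 84.1 ± 8.34 CPM (SD, n = 2; log2 fold change -0.70, adjusted p = 0.000211, edgeR), and DST, a linker of filaments to other cytoskeletal fibres, fell from 212 ± 11.8 to 135 ± 11.8 CPM (log2 fold change -0.64). VIM, the filament protein of mesenchymal and immature cells (0.55), was called higher and the linker MACF1 (-0.70) lower, both named after their values were seen. Without replicate 2 of DMSO or replicate 1 of SGSS05-NS 1 of the 8 was called higher, and without replicate 2 of SGSS05-NS 3 were. NES, the filament protein of neural progenitors, had a log2 fold change of 0.44 (adjusted p = 0.011, edgeR) and was not called.

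Of 31 other microtubule-associated proteins and stathmins tested, 2 were called higher (6.45%) and 5 lower (16.1%), with a median of -0.08. The share called higher was near the 6.37% of all genes, and 8.14% of all genes were lower. STMN4, a neuronal relative of STMN2, rose from 15.4 ± 2.34 to 69.3 ± 17.1 CPM (SD, n = 2; log2 fold change 2.16, adjusted p = 1.5e-06, edgeR), while STMN2 was called lower. The other stathmins, STMN1 (-0.49, adjusted p = 0.00158, edgeR) and STMN3 (0.02), were not called. NAV2, which guides growing neurites, fell from 69.9 ± 7.17 to 23.0 ± 2.18 CPM (log2 fold change -1.61, adjusted p = 9.6e-07, edgeR), and MAP7, which recruits kinesin to microtubules, from 22.4 ± 0.197 to 8.78 ± 0.692 CPM (-1.35). The other calls, named after their values were seen, were MAP1A, which binds microtubules in mature neurons (1.31), DCLK1, a relative of DCX with a kinase domain (-1.37), NAV1 (-0.70) and the severing protein SPAST (-0.52). MAP1B, which is prominent in growing axons, had a log2 fold change of -0.07.

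Of 20 other growth cone proteins tested, 4 were called lower (20%, against 8.14% of all genes), with a median of -0.28. NCAM1, a neural adhesion molecule, fell from 125 ± 3.49 to 80.5 ± 4.68 CPM (SD, n = 2; log2 fold change -0.63, adjusted p = 0.000221, edgeR). GPM6B, a membrane glycoprotein of neurites, fell from 29.1 ± 2.19 to 15.2 ± 2.96 CPM (-0.93), and PFN2, the neuronal profilin, from 273 ± 10.3 to 181 ± 18.9 CPM (-0.59). The remaining call was DPYSL2, which encodes the collapsin response mediator CRMP2 (-0.52), named after its values were seen. BASP1, which resembles GAP43 in function, had a log2 fold change of -0.32 (adjusted p = 0.0411, edgeR).

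Of 11 spectrins, ankyrins, adducins and related membrane skeleton proteins tested, 3 were called lower (27.3%, against 8.14% of all genes), with a median of -0.34. ANK3, the ankyrin that organises the axon initial segment, fell from 13.9 ± 0.382 to 4.204 ± 0.848 CPM (SD, n = 2; log2 fold change -1.72, adjusted p = 1.2e-05, edgeR), and ANK2 from 108 ± 15.0 to 37.9 ± 5.19 CPM (-1.51). ADD3, which caps actin in the membrane skeleton, fell from 49.1 ± 0.912 to 29.8 ± 3.67 CPM (-0.72). ANK2 and ANK3 span 566 and 707 kb.

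Of 14 kinases and kinase activators that act on tau, neurofilaments or doublecortin, 2 were called lower (14.3%, against 8.14% of all genes), with a median of -0.09. GSK3B, a kinase of tau, fell from 145 ± 32.5 to 77.0 ± 5.70 CPM (SD, n = 2; log2 fold change -0.92, adjusted p = 0.000208, edgeR) and TTBK2, a tau tubulin kinase, from 81.9 ± 1.88 to 54.0 ± 1.04 CPM (-0.60). CDK5R2, an activator of the neuronal kinase CDK5, went from 6.37 ± 0.613 to 12.1 ± 3.22 CPM and was not called (0.93, adjusted p = 0.00207, edgeR). Of 5 RNA-binding proteins that act on transcripts of this kind, 2 were called lower (40%, against 8.14% of all genes). ELAVL4, the Hu protein HuD, which binds GAP43 and MAPT mRNA, fell from 404 ± 23.2 to 181 ± 12.7 CPM (SD, n = 2; log2 fold change -1.16, adjusted p = 4.2e-06, edgeR), and ELAVL2 from 50.8 ± 0.385 to 22.6 ± 1.86 CPM (-1.17). TARDBP, whose product TDP-43 keeps a cryptic exon out of STMN2 mRNA, was at 157 ± 4.11 and 125 ± 6.19 CPM (-0.33, adjusted p = 0.0124, edgeR) and was not called.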

How the data were processed

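RNA of SY5Y cells was sequenced in 2 DMSO and 2 SGSS05-NS libraries. Per the labels and the methods of the paper, the authors trimmed reads with Trimmomatic 0.30, aligned them to hg19 (GRCh37) with STAR 2.4.2a and tested them with edgeR 3.10.5; the deposited values are raw fragment counts per gene from STAR, not normalized, in columns without strand, for the forward strand and for the reverse strand. Column 4 (reverse) was used, since the forward column held 4.64% to 5.05% of stranded counts. The labels and the paper name different library kits. The 4 summary rows (37.3% to 38.8% of fragments) were left out. Libraries held 21463105 to 25350204 gene fragments, which limits genes such as PRPH. Intervals and tests cover the spread between these libraries only.

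Identifiers were matched to GENCODE 44 on GRCh37, of which 55538 of 57820 matched; the 2282 others held 4.52% of counts. NEFL and MARCKS could not be matched and were not analysed here, so subunit ratios were taken to NEFM in place of NEFL. In R 4.3.3, edgeR 4.0.16 (TMM, filterByExpr, quasi-likelihood test, Benjamini-Hochberg) tested SGSS05-NS against DMSO over all 16468 genes left; the call threshold was an adjusted p of 0.001. The script was tested on simulated data. RPKM was computed from TMM-scaled CPM and exon length. Alternatives used the likelihood ratio test, DESeq2 1.42.0, limma 3.58.1 (voom), other scalings and filters, a replicate block, unstranded counts, an offset for the trend on span and each library left out. The NEFM denominator, the canonical transcript length, the sum without STMN2 and the protein-coding subset were added after seeing the data. The members and lists were chosen with earlier results of these data known. Named were all members and, from each of 6 lists, the 3 genes with the smallest p, of which 1 is not reported here; others are said to be chosen after their values were seen. Replicates of a condition were checked for duplicates by chi-square, which relative to its degrees of freedom was 8.76 for DMSO and 11.8 for SGSS05-NS, above counting error.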

Additional observations from a re-analysis of the deposited data

Results flagged for a closer look

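Fragments on the strand opposite to MAPT, which the stranded counts leave out and the fit without regard to strand takes in where they are unambiguous, were higher in both SGSS05-NS libraries than in both DMSO libraries once scaled to library size, but not as raw numbers. They numbered 16 and 11 with DMSO and 15 and 23 with SGSS05-NS, or 0.638 and 0.471 CPM against 0.676 and 0.978 CPM, with a treated mean of 0.827 CPM. The gap between the closest libraries was smaller than the gap within either condition, the counts are low, and the difference was not tested.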

How the results depend on the processing

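Of the 9 genes, NEFH (higher), STMN2 and GAP43 (lower) kept their calls in the 13 alternatives that leave span aside; MAP2 turned from -0.54 to 0.21 once the trend on span was removed. The genes called higher (1) became 0 with the length offset and 3 at an adjusted p under 0.05 (edgeR), and ranged from 1 to 2 when a library was left out; those called lower (3) became 5 with no low count filter, with the replicate block and at 0.05, and ranged from 2 to 5. Of the 89 wider genes, the number higher (4) became 7 with the likelihood ratio test and at 0.01 and 12 at 0.05, and 8 with no filter, when 93 were tested; the number lower (19) became 12 with library size only, 30 with no filter (of 93), 5 with the length offset, 43 at 0.05 and 31 at 0.01. Over all genes, the number higher (1049) became 2022 with the likelihood ratio test, 2034 with no filter, 3728 at 0.05 and 2321 at 0.01, and the number lower (1341) became 2267, 2570, 3903 and 2616, and 630 with the length offset. The replicate block gave 1759 higher and 2007 lower. Deviations of same-numbered libraries from their group means correlated at 0.0526 over all genes tested. Whether same-numbered libraries were handled as pairs is not stated. Class medians under 10 kb were 0.128 with library size only, 0.135 without strand, 0.154 for protein-coding genes and 0.0605 to 0.128 with a library left out; from 10 to 30 kb, 0.206 with library size only; from 30 to 100 kb, 0.0462 with library size only, 0.00436 without strand and 0.00667 to 0.0239 with a library left out; from 100 to 300 kb, -0.298 with library size only and -0.357 to -0.310 with a library left out; and at 300 kb and over, -1.16 to -0.913. The difference between short and long members was 0.84 to 1.22 with a library left out and 0.46 with the boundary at 100 kb, where the ratio of summed fragments changed by 0.114. The NEFH to NEFM ratio changed by 0.726 without strand. DESeq2 gave no adjusted p for 1278 genes. The causes of these shifts were not tested. With 2 libraries a condition, leaving out a single library moved the values of NEFM, INA, PRPH and DCX by over 1.5 times.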
